A study of Mus musculus with 7 samples.

Results

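Ifit3, Ifit3b, Ifi44 and Oas1a are 4 interferon-induced antiviral genes, taken by gene symbol or Ensembl identifier from a table of 752 genes measured in activated mouse B cells. All 4 were found, and all 4 passed a filter on low values (a mean of at least 1 CPM, the read count scaled to a fixed effective library size), as did 667 of the 752 genes. The libraries came from spleens of C57BL/6J mice: 3 Batf KO mice, in which the gene for the transcription factor BATF is disrupted (the allele is not described in the labels), and 4 wild-type mice. Splenic B cells of both genotypes were taken on magnetic columns and cultured for 6 h with 20 µg/mL lipopolysaccharide (LPS), the bacterial ligand of TLR4, and 20 ng/mL interleukin-4. Each group therefore carries the same stimulus, and no unstimulated cells were analysed here.

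Type I interferons bind the receptor IFNAR1-IFNAR2 and act through receptor-bound kinases and a complex that holds IRF9, a route that ends at interferon-stimulated response elements in the promoters of target genes. TLR4 can induce interferon-beta through the adaptor TRIF, so LPS can itself be a source of this response, which was not tested here. IFIT3 belongs to the IFIT proteins, which bind foreign RNA and other IFIT proteins, and Ifit3b is a close mouse copy of Ifit3. OAS1A is an oligoadenylate synthetase, which is activated by double-stranded RNA and makes the small nucleotides that activate RNase L. IFI44 is an interferon-induced cytoplasmic protein. BATF binds DNA with JUN proteins at AP-1 sites and, with IRF4 or IRF8, at composite AP-1 and IRF elements.

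The promoter sequences are shown because a short element recurs in them, in Ifi44 only in a looser form. Ifit3 (ENSMUSG00000074896, chromosome 19, 34583531 to 34588731, plus strand, GRCm38) and Ifit3b (ENSMUSG00000062488, chromosome 19, 34607970 to 34613401, plus strand) lie in the IFIT cluster, where 6 genes span 99.3 kb. Ifi44 (ENSMUSG00000028037, chromosome 3, 151730922 to 151749960, minus strand) lies beside Ifi44l. Oas1a (ENSMUSG00000052776, chromosome 5, 120896256 to 120907521, minus strand) lies in the OAS cluster of 10 genes. All 4 are annotated as protein-coding, and none overlaps another annotated gene. The sequences below are from RefSeq (GRCm38.p6), each read 5′ to 3′ on the strand of its gene, upstream of the RefSeq start. Capitals mark matches to the core of the interferon-stimulated response element, searched on both strands as GAAA followed after any 2 bases by GAAA (the full core) and, more loosely, as AAANNGAAA, which the full core contains. A shorter stretch is shown for Ifi44, whose GENCODE start lies inside it.
Ifit3 promoter, chr19:34583279-34583528, plus strand: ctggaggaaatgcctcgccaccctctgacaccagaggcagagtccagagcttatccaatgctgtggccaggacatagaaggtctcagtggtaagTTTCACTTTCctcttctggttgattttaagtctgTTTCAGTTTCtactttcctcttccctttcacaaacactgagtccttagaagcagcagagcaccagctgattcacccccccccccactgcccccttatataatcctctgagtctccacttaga
Ifit3b promoter, chr19:34607707-34607956, plus strand: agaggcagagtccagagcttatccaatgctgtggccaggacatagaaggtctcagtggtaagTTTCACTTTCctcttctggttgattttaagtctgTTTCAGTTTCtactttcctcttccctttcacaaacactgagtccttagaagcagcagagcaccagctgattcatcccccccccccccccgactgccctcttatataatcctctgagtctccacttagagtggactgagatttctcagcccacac
Ifi44 promoter, chr3:151749941-151750080, minus strand: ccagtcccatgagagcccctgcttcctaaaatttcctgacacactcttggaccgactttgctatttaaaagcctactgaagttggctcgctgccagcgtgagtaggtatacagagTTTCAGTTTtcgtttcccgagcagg
Oas1a promoter, chr5:120907526-120907775, minus strand: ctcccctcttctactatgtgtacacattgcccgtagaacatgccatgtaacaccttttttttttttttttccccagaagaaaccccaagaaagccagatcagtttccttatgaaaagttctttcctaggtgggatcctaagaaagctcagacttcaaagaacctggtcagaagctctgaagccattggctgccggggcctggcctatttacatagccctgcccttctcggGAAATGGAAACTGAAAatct

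Ifit3, Ifit3b and Oas1a each held 2 matches to the full core, and the 2 matches of Oas1a overlapped. Ifi44 held no match to the full core and 1 match to AAANNGAAA, which spans its GENCODE start. Over windows from 250 bases before to 50 bases after the start, the full core was found in 3.44% of 32851 RefSeq promoters and AAANNGAAA in 10.6%. Among the promoters of all genes that the authors' deposited table lists, the full core was found in 7.01% of 371 promoters of genes higher in Batf KO and in 2.17% of 369 promoters of genes lower in Batf KO. The higher set holds 26 promoters with the full core, and 12 of these 26 belong to the interferon lists described below. Those lists, the 4 genes included, make up 29 of the 371 promoters. The AP-1 site TGANTCA was present once in Ifit3 and once in Ifit3b and had no match in the windows of Ifi44 and Oas1a, against 7.81% of all promoters. A composite of GAAA directly followed by TGANTCA had no match in the 4 windows and was found in 0.125% of all promoters. A composite of TTTC followed after any 4 bases by TGANTCA likewise had no match in the 4 windows and was found in 0.119% of all promoters. A match describes the letters of the window and not a bound site.

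The Ifit3 and Ifit3b promoters aligned over 224 columns, of which 96.9% were identical. Their transcripts were 97.8% identical over 1700 aligned columns, and 51.2% of the 50-base windows of the Ifit3 transcript occur unchanged in that of Ifit3b. Oas1a has a similar copy in Oas1g, with 97.6% identity over 1861 columns and 56.9% of 50-base windows shared. Neither the read length nor the counting of reads common to copies was stated in the sources at hand, so the split of reads within each of these pairs is uncertain. Ifi44 and its neighbour Ifi44l had no 50-base window in common.

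Facts of the libraries bear on all values below. Effective library sizes were 23675459 to 30844920 reads for the Batf KO mice, against 24891094 to 44728937 reads for the wild-type mice. Batf, the targeted gene, was 63.4 to 70.3 CPM in Batf KO mice and 307 to 333 CPM in wild-type mice. A chi-square comparison of counts within a group gave 17.7 or more per degree of freedom for each pair, so no library was a second copy of another. Wild-type replicates 1 and 2 (19.9) and replicates 3 and 4 (22.5) were nearest to each other, against 36.0 to 54.1 for the other wild-type pairs. The mouse numbers in the titles of wild-type replicates 3 and 4 lie apart from those of the other 5 mice. The labels name no batch, and nothing was adjusted for one. The table lists only genes that passed the authors' own test of the same libraries (a false discovery rate, FDR, of 0.05 over 19734 genes), so the tests of the genotypes below check listed values and are not independent evidence.

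Ifit3 was measured at 61.3, 81.6 and 36.3 CPM in Batf KO replicates 1, 2 and 3, against 21.8, 30.0, 20.4 and 11.0 CPM in wild-type replicates 1, 2, 3 and 4. Each Batf KO library lay above each wild-type library, but Batf KO replicate 3 was only 1.21 times wild-type replicate 2. The means were 59.8 ± 22.7 CPM in Batf KO (SD, n = 3) and 20.8 ± 7.80 CPM in wild type (SD, n = 4). The log2 fold change was 1.52 (SE 0.34), a 2.87-fold difference, with a Benjamini-Hochberg adjusted p of 0.00272 over the 667 fitted genes by edgeR (quasi-likelihood test) and an FDR of 2.62e-06 in the authors' deposited table. With p adjusted over all 19734 genes, the edgeR value was 0.0804 and the call was lost.

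Ifit3b, at a lower level, followed Ifit3 closely. It was measured at 8.49, 11.1 and 5.28 CPM in Batf KO replicates 1 to 3, against 2.66, 4.12, 2.68 and 1.69 CPM in wild-type replicates 1 to 4. Again no library of one genotype reached into the other, and Batf KO replicate 2 was the highest and wild-type replicate 4 the lowest. The means were 8.28 ± 2.89 CPM in Batf KO (SD, n = 3) and 2.79 ± 1.0 CPM in wild type (SD, n = 4). The log2 fold change was 1.57 (SE 0.32), with an edgeR adjusted p of 0.00188 over the fitted genes and of 0.0557 over 19734 genes, which did not pass. The FDR in the authors' deposited table is 6.69e-06.

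Ifi44 was measured at 9.21, 9.94 and 16.4 CPM in Batf KO replicates 1, 2 and 3, against 4.04, 8.57, 5.14 and 3.09 CPM in wild-type replicates 1, 2, 3 and 4. The groups were separated by little: the lowest Batf KO library was 1.07 times the highest wild-type library. Unlike the IFIT genes, Ifi44 was highest in Batf KO replicate 3. The means were 11.8 ± 3.95 CPM in Batf KO (SD, n = 3) and 5.21 ± 2.39 CPM in wild type (SD, n = 4), and the log2 fold change was 1.18 (SE 0.34). The edgeR adjusted p was 0.00852 over the fitted genes and 0.252 over 19734 genes, and the authors' deposited table gives an FDR of 0.0029. Set against wild-type replicates 1 and 2 alone, Ifi44 did not pass (log2 fold change 0.92, edgeR adjusted p = 0.0540).

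Oas1a was measured at 47.8, 49.5 and 39.9 CPM in Batf KO replicates 1, 2 and 3, against 28.2, 33.0, 22.8 and 16.1 CPM in wild-type replicates 1, 2, 3 and 4. The Batf KO libraries lay close together and above all wild-type libraries, the nearest pair by 1.21-fold. The means were 45.7 ± 5.12 CPM in Batf KO (SD, n = 3) and 25.0 ± 7.26 CPM in wild type (SD, n = 4). The log2 fold change was 0.87 (SE 0.21), the smallest of the 4 genes, with an edgeR adjusted p of 0.00420 over the fitted genes and of 0.124 over 19734 genes. The FDR in the authors' deposited table is 0.000157. In all, 4 of the 4 genes passed over the fitted genes, where 50.8% of genes were called higher in Batf KO and 49.2% lower, so their calls say nothing beyond the listing. The authors' deposited table calls 1.95% of 19734 genes higher. By edgeR adjusted over these 19734 genes, 0.679% were called higher and none of the 4 was, although the unadjusted p was under 0.05 for each. The authors' own test, over the same number of genes, gave an FDR of 2.62e-06 (Ifit3) to 0.0029 (Ifi44). Why the quasi-likelihood refit lost the calls was not tested. DESeq2, adjusted over the fitted genes alone, gave an adjusted p of 7.9e-06 (Ifit3) to 0.00106 (Ifi44). The groups did not overlap for any of the 4, each with Batf KO above wild type, as for 47.5% of the fitted genes, while 48.6% were separated the other way. An exact permutation test of the CPM (two-sided, 35 splits) gave p = 0.0286, the smallest it can give, for Ifit3, Ifit3b and Oas1a, and p = 0.0571 for Ifi44.

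**Figure D1:**
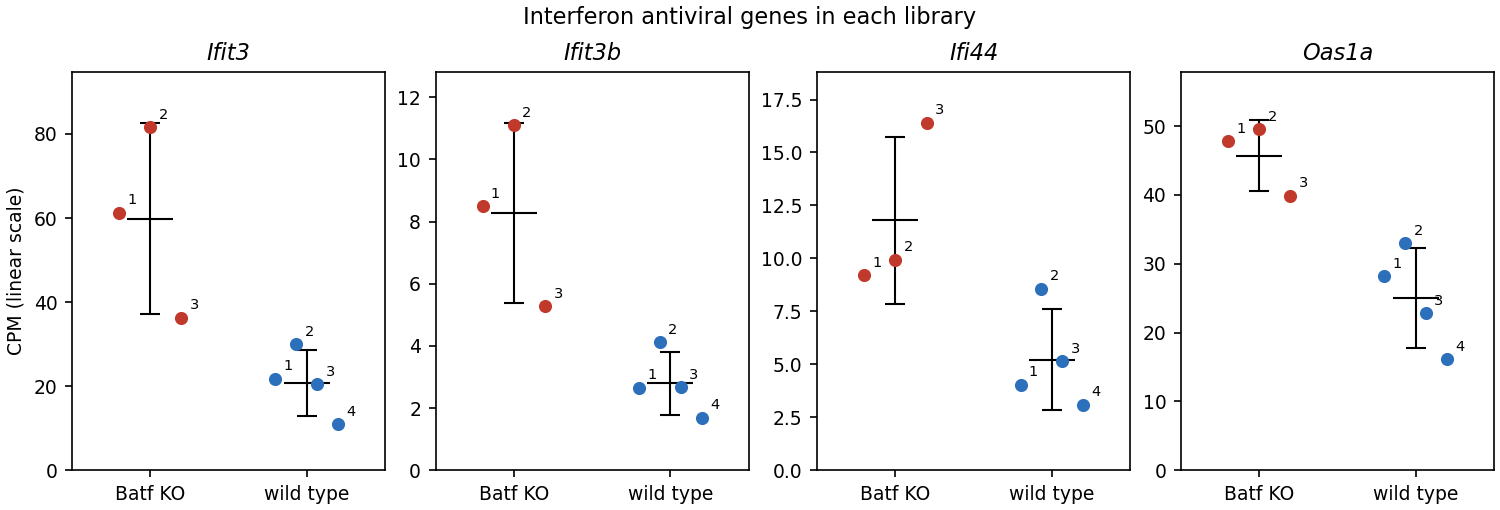
CPM on a linear scale of Ifit3, Ifit3b, Ifi44 and Oas1a in 3 Batf KO libraries (red) and 4 wild-type libraries (blue); each point is 1 library with its replicate number, and black bars give the mean and SD. Each Batf KO library lies above each wild-type library, wild-type replicate 2 is the highest and replicate 4 the lowest of wild type in all 4 panels, and Batf KO replicate 3 is lowest in 3 panels and highest for Ifi44.

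Per kilobase of the longest annotated protein-coding transcript, the level in Batf KO was 34.2 ± 13.0 CPM per kb for Ifit3, 24.3 ± 2.72 for Oas1a, 4.14 ± 1.45 for Ifit3b and 4.07 ± 1.36 for Ifi44 (SD, n = 3). In wild type the level was 13.3 ± 3.85 CPM per kb for Oas1a, 11.9 ± 4.47 for Ifit3, 1.79 ± 0.822 for Ifi44 and 1.39 ± 0.501 for Ifit3b (SD, n = 4). Ifit3 and Oas1a were thus the abundant pair in both genotypes, and Ifi44 and Ifit3b the scarce pair. Within each pair, in each genotype, the means differed by less than 1 SD of the more variable gene.

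Among the wild-type libraries alone, which share genotype, strain and stimulus, the 4 genes differed by 2.05-fold to 2.77-fold between the highest and the lowest library. For Ifi44 the highest wild-type library was 2.77 times the lowest, beside a 2.27-fold difference between the genotypes. Oas1a had a 2.05-fold range in wild type beside a 1.83-fold difference between the genotypes. For Ifit3 and Ifit3b the wild-type ranges were 2.74-fold and 2.44-fold, beside genotype differences of 2.87-fold and 2.96-fold. A range of single libraries and a difference between group means are unlike measures. The SD of log2 CPM among wild-type libraries was 0.45 (Oas1a) to 0.63 (Ifi44), below the log2 fold change of each gene, 0.87 (Oas1a) to 1.57 (Ifit3b). The median range of the fitted genes among wild-type libraries was 1.27-fold. These genes were all listed for a genotype difference in the same libraries, and such a listing favours a small spread within a genotype. Genes outside the table have no spread to set beside these values.

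Counting error was small beside this spread. Ifit3 had 870, 903, 911 and 273 reads in wild-type replicates 1, 2, 3 and 4, and Ifit3b had 106, 124, 120 and 42. After the variance expected from counting was taken off, the SD of log2 CPM among wild-type libraries was 0.61 for Ifi44, 0.60 for Ifit3, 0.50 for Ifit3b and 0.44 for Oas1a, against a median of 0.14 over all 667 fitted genes. Ifi44 ranked 16th, Ifit3 20th, Ifit3b 39th and Oas1a 56th of these genes, where the first is the most variable. In Batf KO the same SD was 0.59 for Ifit3, 0.53 for Ifit3b, 0.44 for Ifi44 and 0.16 for Oas1a, against a median of 0.11 over 665 genes without a zero count. Oas1a therefore stood near the bulk of genes in Batf KO (rank 211), while Ifit3 (8), Ifit3b (13) and Ifi44 (20) were again among the most variable. Ranks describe these libraries and stand among the listed genes only. Whether the spread differs between the genotypes was not tested. The wild-type spread rests largely on single libraries: without replicate 4 the SD of log2 CPM, counting part included, fell to 0.30 for Ifit3 (0.61 with it) and 0.27 for Oas1a (0.45), and without replicate 2 it fell to 0.37 for Ifi44 (0.63).

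**Figure D2:**
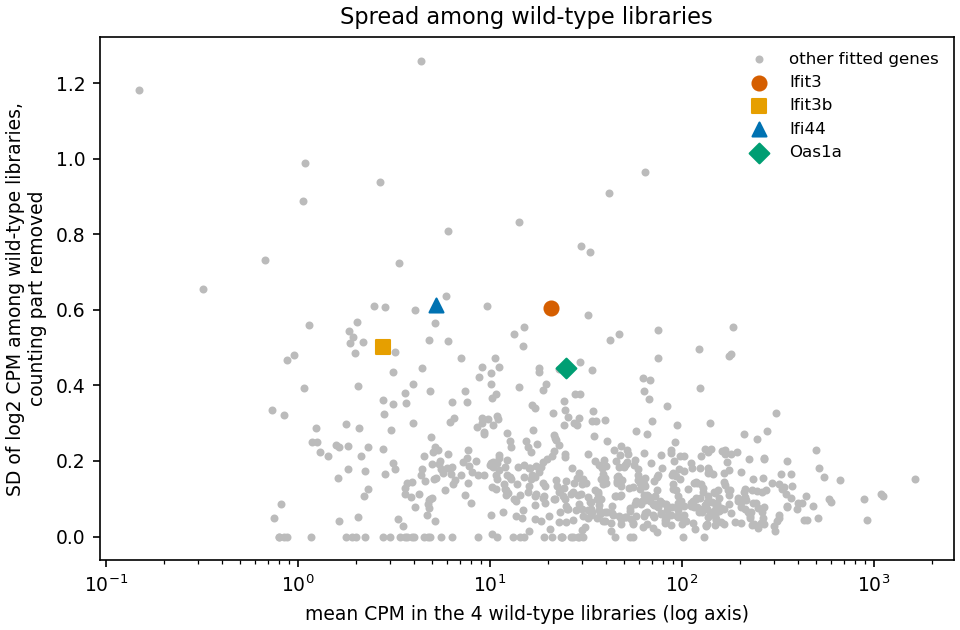
Mean CPM in the 4 wild-type libraries (log axis) against the SD of log2 CPM among them with the counting part removed, for the 667 fitted genes (1 point a gene). Ifi44 (0.61), Ifit3 (0.60), Ifit3b (0.50) and Oas1a (0.44) lie well above the median of 0.14.

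In wild type the 4 genes moved together. All 4 were highest in replicate 2, at 132% to 164% of the wild-type mean, and lowest in replicate 4, at 52.8% to 64.4% of it. This order of highest and lowest library was found for 14.2% of the fitted genes. Replicates 1 and 3 lay between them, at 77.5% to 113% of the mean. Replicate 4 also had the smallest effective library size of wild type (24891094 reads) and replicate 2 the next (30103062 reads), and the part of depth was not tested. The transcription factor gene Tbx21 was placed in the list of T and NK cell markers. Whether B cells themselves expressed it here was not tested. It had the same order in wild type, at 2.33, 10.1, 3.76 and 1.25 CPM in replicates 1, 2, 3 and 4, but unlike the 4 genes it was lower in Batf KO. Cd8b1 did not have this order, at 1.48, 2.56, 2.59 and 1.57 CPM. These are the listed markers of that kind, and their part in the spread was not tested. The highest and the lowest wild-type library belong to different pairs of near libraries. The means of replicates 1 and 2 were nevertheless above those of replicates 3 and 4 for all 4 genes, at 25.9 against 15.7 CPM for Ifit3 and at 30.6 against 19.4 CPM for Oas1a. Batf KO was 1.49-fold (Oas1a) to 2.44-fold (Ifit3b) higher than replicates 1 and 2, and 2.35-fold (Oas1a) to 3.81-fold (Ifit3) higher than replicates 3 and 4.

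The ratio of one gene to another in the same library shows how far they moved together. The ratio of Ifit3 to Ifit3b was 6.88 to 7.38 in Batf KO mice and 6.50 to 8.21 in wild-type mice. The SD of its log2 was 0.05 in Batf KO and 0.14 in wild type, within the 0.11 and 0.17 expected from counting alone. The share of Ifit3b in the reads of both genes was 11.9% to 12.7% in Batf KO mice and 10.9% to 13.3% in wild-type mice. The 95% Wilson intervals of the shares, which cover counting error only, overlapped among all 7 libraries (lowest bound 9.06%, highest 17.5%). The part of reads common to both copies in this ratio was not tested.

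The ratio of Ifit3 to Ifi44 was 6.66, 8.21 and 2.22 in Batf KO replicates 1, 2 and 3, and 5.40, 3.50, 3.96 and 3.55 in wild-type replicates 1, 2, 3 and 4. It spanned 3.70-fold in Batf KO and 1.54-fold in wild type. In wild type the SD of the log2 ratio, 0.29, was below that of Ifit3 (0.61) and of Ifi44 (0.63) alone, so most of their spread was shared. In Batf KO it was 1.01, above that of Ifit3 (0.59) and of Ifi44 (0.45), because Batf KO replicate 3 was lowest for Ifit3 and highest for Ifi44. Counting alone would give 0.09 in Batf KO, where the reads of Ifi44 numbered 284, 268 and 388. This opposite movement rests on 1 library.

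Oas1a followed the IFIT genes in order with a smaller swing. The ratio of Ifit3 to Oas1a was 0.910 to 1.65 in Batf KO mice and 0.681 to 0.909 in wild-type mice, so the lowest Batf KO value lay just above the highest wild-type value. The ratio of Ifi44 to Oas1a was 0.411 in Batf KO replicate 3 and 0.193 and 0.201 in the other Batf KO libraries, against 0.143 to 0.260 in wild type. Oas1g, the close copy of Oas1a, also stood higher in Batf KO replicate 3. It took 2.32%, 1.40% and 4.74% of the reads of both genes in Batf KO replicates 1, 2 and 3, against 0.743% to 2.46% in wild type. The 95% Wilson interval in Batf KO replicate 3 was 3.58% to 6.24%, above that of the other Batf KO libraries (highest bound 3.21%), and it touched that of wild-type replicate 2 (1.67% to 3.6%).

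**Figure D3:**
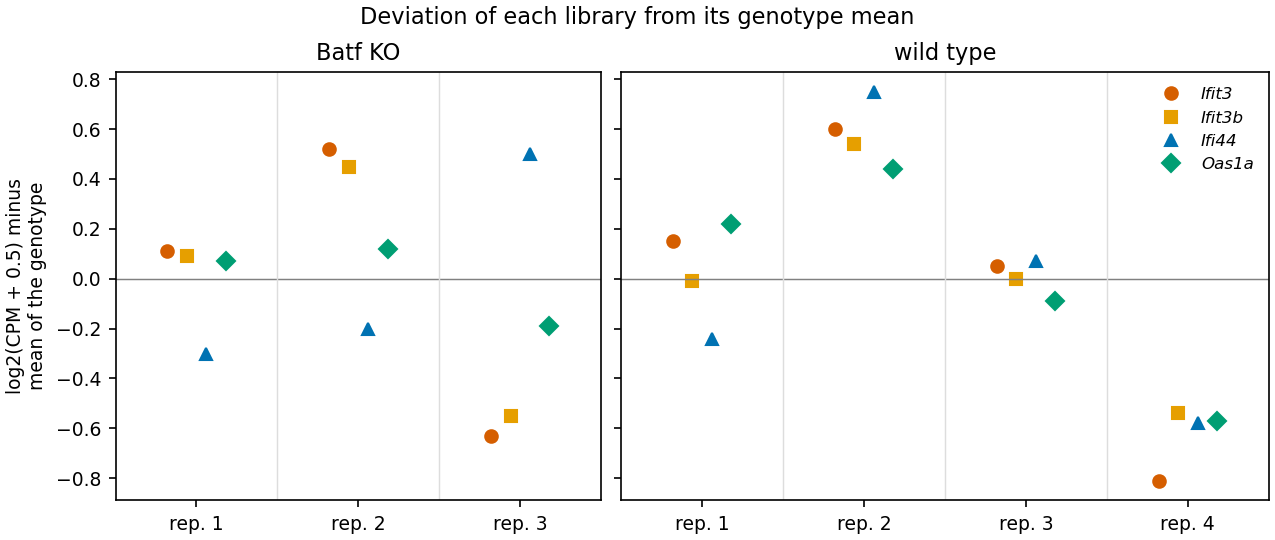
Deviation of log2(CPM + 0.5) from the mean of the genotype for Ifit3, Ifit3b, Ifi44 and Oas1a in each of 3 Batf KO libraries and 4 wild-type libraries; each marker is 1 gene in 1 library. In wild type all 4 genes are high in replicate 2 (0.44 to 0.75) and low in replicate 4 (-0.81 to -0.54), while in Batf KO replicate 3 Ifi44 is at 0.50 and the other 3 are at -0.63 to -0.19.

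The genes whose within-genotype profile over the 7 libraries was nearest to the mean profile of the 4 were Rasa4, Usp18, Carmil1, Ms4a4c, Ifi204, Jaml, Isg15, Atf3, Sdc3 and Tns1. The measure was the root mean square difference of log2(CPM + 0.5), centred within each genotype. It was 0.11 for Rasa4 and 0.15 for Tns1, against a median of 0.37 over 663 other genes. The 4 genes themselves stood at 0.11 (Oas1a), 0.16 (Ifit3b), 0.22 (Ifit3) and 0.36 (Ifi44) from their mean. Each of the 4 enters that mean, which lowers its own distance, and Ifi44 was still near the median of the other genes. Of the 10 nearest genes, Usp18, Ifi204 and Isg15 were in the interferon lists described next, which held 3.62% of the genes compared. Usp18 (an interferon-induced protease that removes ISG15) was 114, 127 and 111 CPM in Batf KO replicates 1 to 3, against 84.4, 105, 68.9 and 43.0 CPM in wild-type replicates 1 to 4. Isg15, the ubiquitin-like modifier, was 214, 184 and 178 CPM in Batf KO, against 127, 167, 125 and 73.3 CPM in wild type. Both were lowest in wild-type replicate 4 and highest of wild type in replicate 2, with groups that did not overlap.

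The 7 lists of the interferon pathway held 134 genes, of which 29 were in the table, and all 29 were higher in Batf KO, where 51.1% of the table was higher. Of these, 28 passed the filter and all 28 were called over the fitted genes, where 50.8% of the 667 genes were called higher and 49.2% lower. Over 19734 genes 6 of the 28 passed, where 134 of the 667 fitted genes were called higher and 152 lower. The median log2 fold change of the 28 was 0.80, against 0.30 over all fitted genes. It was 0.69 for the 24 fitted genes other than the 4 described here. All of these genes had been listed for their difference in the same contrast, so the counts are a description.

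Among 43 antiviral effectors, 10 were in the table, with a median log2 fold change of 1.05 that includes Ifit3, Ifit3b and Ifi44. Rsad2, which encodes viperin, had a log2 fold change of 1.42 (SE 0.57) with overlapping groups, and Ifitm3, which restricts virus entry at membranes, had 1.24 (SE 0.42). Ifit2, the IFIT neighbour of Ifit3, was 61.0, 80.6 and 42.4 CPM in Batf KO replicates 1 to 3, against 33.2, 46.0, 32.4 and 17.4 CPM in wild-type replicates 1 to 4. It had the order of Ifit3 in Batf KO, but its groups overlapped. Ifitm2 was the effector that passed over 19734 genes (log2 fold change 0.78, edgeR adjusted p = 0.0362). Of the 9 OAS and RNase L genes, Oasl2 had a log2 fold change of 1.14 (SE 0.33), and Oas1g was in the table below the filter, with 35, 19 and 47 reads in Batf KO replicates 1 to 3 and 13, 25, 11 and 3 reads in wild-type replicates 1 to 4.

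Upstream of these genes, 4 of 14 interferons and receptors were in the table. Ifna4, an interferon-alpha gene, was 2.30, 1.74 and 1.35 CPM in Batf KO replicates 1 to 3, against 1.13, 0.698, 1.14 and 0.522 CPM in wild-type replicates 1 to 4. Interferon-alpha genes are a family of close copies, so this count is uncertain. The receptor chains Ifnar1 and Ifnar2 had smaller log2 fold changes of 0.36 (SE 0.08) and 0.37 (SE 0.10), and the lambda receptor Ifnlr1 had 0.61 (SE 0.17). None of these 4 passed over 19734 genes. Ifnar1 and Ifnar2 were highest of wild type in replicate 4, at 73.3 and 46.6 CPM, the library in which Ifit3, Ifit3b, Ifi44 and Oas1a were lowest.

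Of 19 signalling and IRF genes, 5 were in the table. Irf4, a BATF partner, had a log2 fold change of 1.12 (SE 0.09) and Irf8, the other partner, 0.60 (SE 0.11), and both passed over 19734 genes (edgeR adjusted p = 0.000664 and 0.0446). Socs3, a feedback inhibitor of cytokine receptors, had 0.81 (SE 0.11) and also passed (edgeR adjusted p = 0.0071). Over 19734 genes, 4 of the 5 signalling and IRF genes passed, where 134 of the 667 fitted genes were called higher and 152 lower. All 5 were listed for this same contrast, so the count is a description. Irf7 and Irf9 are not in the table and have no value here. Of 18 sensors and adaptors, Tlr3, the receptor of double-stranded RNA, had 0.86 (SE 0.22) and Ticam1, which encodes TRIF, had 0.36 (SE 0.07). None of the 17 interferon-inducible GTPases was in the table. Of 14 PYHIN genes 5 were, led by Ifi204, whose protein senses DNA, with 1.23 (SE 0.31). Ifi209 had 0.82 (SE 0.23), Ifi207 had 0.73 (SE 0.28) with overlapping groups, and Ifi203 had 0.56 (SE 0.20).

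**Figure D4:**
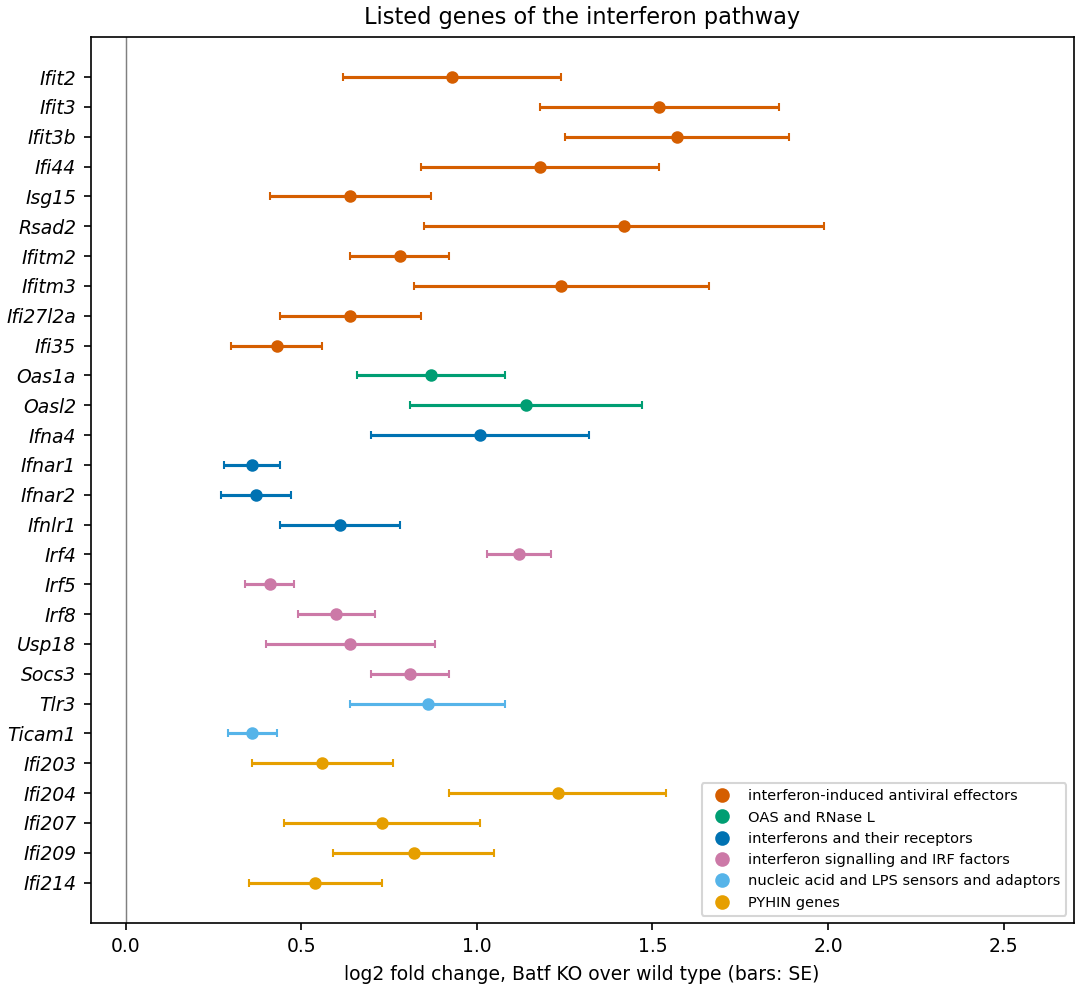
Log2 fold change of Batf KO over wild type with its SE (bars) for the 28 fitted genes of the interferon lists, coloured by list. All lie above 0, and Ifit3b (1.57), Ifit3 (1.52) and Rsad2 (1.42) have the largest values; the genes come from a table selected on this contrast.

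The order of libraries seen in the 4 genes recurred in some of these lists and not in others. Of the 24 fitted list genes other than the 4, 14 were highest of wild type in replicate 2 and lowest in replicate 4, where 14.2% of all fitted genes had this order. With the 4 genes counted in, this order was found in 9 of 10 antiviral effectors, 2 of 2 fitted OAS genes, 2 of 2 sensors and adaptors, 3 of 5 PYHIN genes and 2 of 5 signalling genes, but in 0 of 4 interferons and receptors. In Batf KO, 12 of the 24 were highest in replicate 2 and lowest in replicate 3, as Ifit3, Ifit3b and Oas1a were, against 19.0% of fitted genes. As with Ifi44, 4 of the 24 were highest in Batf KO replicate 3, against 30.7% of fitted genes, and they were Rsad2, Ifitm2, Ifnlr1 and Ticam1. Rsad2 was 119, 95.3 and 302 CPM in Batf KO replicates 1, 2 and 3, against 43.1, 139, 44.6 and 29.7 CPM in wild-type replicates 1, 2, 3 and 4. It was thus high in the same library of each genotype as Ifi44. The median SD of log2 CPM beyond counting among wild-type libraries was 0.54 for the antiviral effectors, 0.60 for the fitted OAS genes and 0.48 for the PYHIN genes. It was 0.17 for the interferons and receptors, 0.15 for the signalling genes and 0.11 for the sensors and adaptors, against 0.14 over all fitted genes. The sensors and adaptors thus had the order with little spread: Ticam1 was 58.8, 59.1, 58.1 and 53.8 CPM in wild-type replicates 1 to 4.

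Markers of cell types were few in the table. Of 13 B cell markers, Ms4a1 (CD20) and Blk were listed, summing to 943 to 1006 CPM in Batf KO mice and 607 to 687 CPM in wild-type mice. None of 8 plasmacytoid dendritic cell markers and none of 10 stromal markers was listed. Zbtb46 alone of 18 myeloid markers was listed, at 73.6 to 89.6 CPM in Batf KO mice and 47.4 to 65.6 CPM in wild-type mice. Of 14 T and NK cell markers, Cd8b1 and Tbx21 were listed, summing to 5.70 to 7.88 CPM in Batf KO mice and 2.81 to 12.6 CPM in wild-type mice. Cd8b1 was higher in Batf KO, and Tbx21 was lower, at 0.186 to 0.465 CPM in Batf KO against 1.25 to 10.1 CPM in wild type. Of 10 erythroid and platelet markers, Pf4 was listed, at 0.760 to 1.04 CPM in Batf KO mice and 0.281 to 0.627 CPM in wild-type mice. Markers outside the table have no value here, and the part of other cells in the values of the 4 genes was not tested. In bulk libraries, more RNA per cell and more cells that express a gene cannot be told apart.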

How the data were processed

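Total RNA of 7 libraries was read as paired ends by Illumina HiSeq sequencing (labels' protocols). HTSeq 0.5.3p7, TopHat2 2.0.6, edgeR 3.03 and the build mm10 appear in the submitters' processing notes, without roles. No source at hand gives the annotation, the strand setting or the treatment of multi-mapping reads. Per the file headers, the deposited table gives whole read counts and CPM for each library. It also gives the authors' log2 fold change and log2 mean CPM, their likelihood ratio (a score), their p-value and FDR. The table holds 752 genes with a highest FDR of 0.0499, and the ratio of FDR to p-value gives 19734 genes adjusted over. The design text states 2 replicates per sample; what these are is not given, so each library was taken as 1 mouse, and p-values measure the spread between these libraries.

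Libraries were grouped by the genotype label and numbered in accession order. Effective library sizes were recovered as count divided by CPM. Genes whose CPM averaged at least 1 (667; 85 fell below) were tested on their counts, two-sided, by edgeR 4.0.16 (R 4.3.3; quasi-likelihood), with Benjamini-Hochberg adjustment at 0.05. The stricter adjustment over 19734 genes counted the genes outside the table as not called. SE is the log2 fold change divided by the square root of F. The test was also run on simulated counts that gave all genes the same spread, so that run says nothing about the 4 genes. DESeq2 1.42.0 and limma 3.58.1 were alternatives. Gene symbols and positions came from GENCODE M21 (GRCm38, also called mm10), which held 742 of 752 identifiers, and promoters from RefSeq, which matched all 4 genes. Transcripts were aligned with Biopython 1.88 and permutation tests run with scipy 1.17.1. Genes were named by rule: the 4 genes, the 10 nearest profiles and up to 4 listed genes a list with the largest log2 fold change. Ifit2 and Ifitm2 were named beside the rule after their values were seen. The 4 genes and the lists were chosen with earlier results of these data known.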

Additional observations from a re-analysis of the deposited data

Results flagged for a closer look

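In wild-type replicate 2, Rsad2 reached 139 CPM, while the other 3 wild-type libraries had 29.7 to 44.6 CPM. Its gap to the nearest of these was 0.864 of the range of the group, above Dixon's 95% critical value for 4 samples. The wild-type values of 37 genes were examined in this way, and chance gives about 1.85 such samples, so 1 is no more than chance gives. None of Ifit3, Ifit3b, Ifi44 and Oas1a met this mark. No explanation was tested.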

How the results depend on the processing

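None of the 69 alternative values of the 4 log2 fold changes reversed, and 64 kept the call. The exceptions were the adjustment over 19734 genes, which left the log2 fold changes at 1.52 (Ifit3), 1.57 (Ifit3b), 1.18 (Ifi44) and 0.87 (Oas1a) and ended all 4 edgeR calls (adjusted p 0.0557 to 0.252), and wild-type replicates 1 and 2 alone, with 0.92 for Ifi44 (edgeR adjusted p = 0.0540). With 1 library left out, the log2 fold change was 1.23 to 1.78 for Ifit3, 1.30 to 1.80 for Ifit3b, 0.88 to 1.51 for Ifi44 and 0.71 to 1.03 for Oas1a, and the highest edgeR adjusted p was 0.0402 (Ifi44 without Batf KO replicate 3). Of the 339 genes called higher and 328 called lower, adjustment over 19734 genes left 134 and 152, and the counts stayed within 1.5 times the main counts under the other alternatives. The SD of log2 CPM among wild-type libraries, 0.61 for Ifit3, 0.63 for Ifi44 and 0.45 for Oas1a before the counting part is removed, was 0.30 to 0.74, 0.37 to 0.76 and 0.27 to 0.54 with 1 library left out. The lowest values came without replicate 4 for Ifit3 and Oas1a and without replicate 2 for Ifi44, so the spread rests largely on these libraries. Likeness over wild-type libraries alone shared 6 of the 10 nearest genes. No paired analysis was possible because the labels pair no library of one genotype with a library of the other. Depth limits Ifit3b, with 42 reads in wild-type replicate 4.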
